A study of Mus musculus with 6 samples.

Results

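The 9 genes described here are Dcx, Dlx1, Dlx2, Dlx5, Dlx6, Sp8, Sp9, Gad1 and Gad2, genes of the immature GABA neurons that migrate from the wall of the lateral ventricle to the olfactory bulb. They were chosen by name, as known genes of that lineage, from the 19938 genes with a probe set of 1 gene symbol on the array, and all 9 were measured, each by 1 such probe set. Their levels were read on 6 Affymetrix whole-transcript arrays of the mouse ependymal layer, the ciliated cell sheet that lines the ventricles. Tissue came from FoxJ1-EGFP brains, in which green fluorescent protein marks cells with Foxj1 activity, and the fluorescent domain was cut out by laser capture. The groups were wildtype and FoxJ1 null brains aged 1, 7 or 14 days after birth, each of the 6 combinations was measured once, and all carried the FoxJ1-EGFP reporter. How the null allele was made, the promoter fragment of the reporter, and whether an array held 1 animal or several are not stated in the labels. Each p-value thus reflects only how far these arrays scatter, and the number of arrays limits its precision.

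In the postnatal forebrain, neural stem cells beneath the ependyma give rise to dividing progenitors and then to neuroblasts, which travel in chains along the rostral migratory stream and become GABA interneurons of the olfactory bulb. The homeodomain factors of the Dlx family and the zinc finger factors Sp8 and Sp9 set this fate, the microtubule-binding protein doublecortin (Dcx) serves the migrating cell, and the glutamate decarboxylases Gad1 and Gad2 make GABA. Dlx1 and Dlx2 lie side by side in the genome, as do Dlx5 and Dlx6. The ependymal cell itself is not a member of this lineage.

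The labelled tissue was checked through its markers. The ependymal list (9 genes, with Foxj1, Tmem212 and Enkur among them) had a mean log2 level of 8.23 to 8.45 on the wildtype arrays and 7.33 to 7.70 on the null arrays, and 4 of its genes were called lower in the null. Foxj1, the targeted gene, differed by -0.63 ± 0.25 (SD over 3 ages, limma adjusted p = 0.0573). Its level was low, 7.24 to 7.72 on the wildtype arrays and 6.89 to 6.95 on the null arrays. The median of all probe sets was 7.72 to 7.81 per array. The list of immature neuron genes had a mean level of 11.33 to 12.44 on the wildtype arrays and 11.19 to 12.53 on the null arrays. The series title names male mice, yet Xist, the RNA that silences an X chromosome, was high on the wildtype array of day 1 (12.40) and the null array of day 7 (12.35). The remaining 4 arrays read 5.37 to 5.83, and the Y-linked Eif2s3y, Kdm5d and Uty were low on the same pair. A member's call that was lost without this pair is given with and without it. Counts of the other lists without the pair are given only in part, and between days 14 and 1 several of those not given were lower. The fit without the pair had to take age as a line, so that 2 choices changed together in it. Only Dcx of the 9 genes lies on the X chromosome. Its level was 12.54 on both day 1 arrays, 1 of which had high Xist.

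Several members are neighbours in the genome. Gad1, Dlx1, Dlx2 and Sp9 follow each other on chromosome 2, with 967.3 kb between the starts of Gad1 and Dlx1, 17.3 kb between those of Dlx1 and Dlx2 and 1.73 Mb between those of Dlx2 and Sp9 (RefSeq promoter table, build GRCm38.p6). Gad2 lies elsewhere on chromosome 2, Dlx5 and Dlx6 on chromosome 6 and Sp8 on chromosome 12. The 250 bases before the annotated start are shown for the members with the greatest differences between days 14 and 1 in each direction that have an entry in the table, Dcx and Dlx2 on the lower side and Gad1 and Gad2 on the higher side. They are printed 5′ to 3′ on the gene's own strand, with capitals for TAATTA or TAATTG, letters of the core bound by homeodomain proteins of the Dlx class, searched on both strands (CAATTA is the reverse of TAATTG).
Dcx: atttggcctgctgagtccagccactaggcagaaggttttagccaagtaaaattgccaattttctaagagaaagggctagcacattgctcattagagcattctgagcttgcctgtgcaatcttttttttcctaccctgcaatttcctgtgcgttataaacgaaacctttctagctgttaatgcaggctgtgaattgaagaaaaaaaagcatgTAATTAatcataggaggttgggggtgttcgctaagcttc
Dlx2: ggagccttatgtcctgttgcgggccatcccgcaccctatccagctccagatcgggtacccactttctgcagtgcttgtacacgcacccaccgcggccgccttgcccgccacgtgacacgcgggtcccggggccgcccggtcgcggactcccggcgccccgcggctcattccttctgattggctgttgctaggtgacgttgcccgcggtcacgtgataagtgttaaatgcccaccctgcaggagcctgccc
Gad1: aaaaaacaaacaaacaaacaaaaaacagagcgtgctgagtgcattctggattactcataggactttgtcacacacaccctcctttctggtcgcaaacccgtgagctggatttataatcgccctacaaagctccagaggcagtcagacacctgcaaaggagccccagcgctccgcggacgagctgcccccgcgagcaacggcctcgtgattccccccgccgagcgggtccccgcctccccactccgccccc
Gad2: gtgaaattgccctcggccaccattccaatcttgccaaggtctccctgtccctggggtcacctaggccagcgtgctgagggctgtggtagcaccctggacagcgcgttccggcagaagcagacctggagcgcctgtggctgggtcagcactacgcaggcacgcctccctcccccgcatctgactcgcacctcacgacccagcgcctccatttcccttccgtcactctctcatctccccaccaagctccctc
The Dcx window is chrX:143933220-143933469 on the minus strand, that of Dlx2 chr2:71546755-71547004 on the minus strand, that of Gad1 chr2:70561879-70562128 on the plus strand and that of Gad2 chr2:22622077-22622326 on the plus strand. The Dcx window held TAATTA, beginning 39 bases before the start, and its GC content was 41.6%. The windows of Dlx2, Gad1 and Gad2 held neither motif, with GC contents of 66.4%, 58.0% and 64.0%. Of the 10 windows listed for 7 members, 4 held a motif, both windows of Dcx, which overlap and share 1 match, the window of Sp9 and 1 of the 3 windows of Sp8. Among all 32851 windows, 11.3% held either motif, 4.84% TAATTA and 7.17% TAATTG. A match is a run of letters in this window and nothing more.

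The differences of the 9 genes between days 1 and 14 are grouped here by the threshold given below, and members were not tested against each other. Dcx, Dlx2, Dlx5 and Sp8 fell, Gad1 rose, and Dlx1 and Dlx6 had differences of -0.14 and -0.06. Sp9 (-0.42) and Gad2 (0.38) did not pass. The values beside each gene are RMA log2 levels, in which a difference of 1 is 2-fold. Differences between ages come from a limma fit over all 19938 genes with genotype and age as factors, with 2 arrays per age, and p-values were adjusted across the whole set of genes (Benjamini-Hochberg) with a threshold of 0.05. In bulk tissue, fewer cells of a type and less RNA per cell cannot be told apart.

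Dcx had the greatest difference. It read 12.54, 12.38 and 11.66 on the wildtype arrays of days 1, 7 and 14, with null levels of 12.54, 12.14 and 11.20. Both day 14 arrays lay below all others, and each genotype was lower at each later age. The difference between days 14 and 1 was -1.10 (SE 0.14), a level 2.15-fold lower (limma adjusted p = 0.00124). It passed under all 16 alternative settings, several of which left its difference unchanged, and was -1.34 without the 2 high-Xist arrays.

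Dlx2 and Dlx5, 1 gene from each Dlx pair, had the next greatest falls. Dlx2 read 10.31, 10.11 and 9.70 in the wildtype at days 1, 7 and 14 and 10.44, 9.79 and 9.65 in the null. Dlx5 read 10.79, 10.53 and 10.23 on the wildtype arrays and 10.98, 10.33 and 10.22 on the null arrays. For both genes the day 14 arrays lay below the day 1 arrays with no overlap. Dlx2 fell by 0.70 on the log2 scale (SE 0.14, 1.63-fold, limma adjusted p = 0.0106) and Dlx5 by 0.66 (SE 0.14, 1.58-fold, adjusted p = 0.0116). Without the null day 1 array neither was called (Dlx2 -0.55, adjusted p = 0.0716, and Dlx5 -0.52, adjusted p = 0.084), and without the null day 14 array Dlx5 was not (-0.66, adjusted p = 0.0587).

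Their partners were not called. Dlx1 read 11.77, 11.69 and 11.61 on the wildtype arrays and 11.54, 11.39 and 11.41 on the null arrays. Dlx6 read 9.17, 8.98 and 9.17 on the wildtype arrays and 9.22, 8.96 and 9.10 on the null arrays. The day 1 and day 14 arrays overlapped for both. The differences between days 14 and 1 were -0.14 for Dlx1 (95% interval -0.41 to 0.13, limma adjusted p = 0.54) and -0.06 for Dlx6 (-0.33 to 0.22, adjusted p = 0.826). The interval of Dlx2 ran from -1.02 to -0.39 and overlapped that of Dlx1 at its edge, and the interval of Dlx5, from -0.96 to -0.36, did not overlap that of Dlx6. The difference between partners was not itself tested. Dlx1as, the antisense gene at the Dlx1 locus, which was added after its values were seen, read 9.31, 9.04 and 8.78 on the wildtype arrays and 8.05, 8.92 and 8.36 on the null arrays, with a difference of -0.11 between days 14 and 1 (adjusted p = 0.818).

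The zinc finger genes Sp8 and Sp9 were both near the threshold. Sp8 read 9.07, 9.10 and 8.74 on the wildtype arrays and 9.21, 8.83 and 8.57 on the null arrays, and Sp9 read 8.74, 8.52 and 8.41 on the wildtype arrays and 8.91, 8.44 and 8.39 on the null arrays. In both genes the day 14 levels lay below the day 1 levels in each genotype. Sp8 fell by 0.48 on the log2 scale (SE 0.14, 1.40-fold, limma adjusted p = 0.0457), and Sp9 read -0.42 (SE 0.13, adjusted p = 0.0561). Sp8 was not called without the wildtype day 14 (-0.53), null day 1 (-0.31) or null day 14 array (-0.43). With genotype left out it was not called either (-0.48, limma adjusted p = 0.0518). Sp9 passed under 8 of 16 alternatives, among them those without the wildtype day 1 array (-0.53) and without either day 7 array (-0.42). Leaving out the wildtype or the null day 7 array is the same fit for this comparison.

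Of the GABA-making enzymes Gad1 rose and Gad2 did not pass. Gad1, which encodes the form of glutamate decarboxylase found throughout the neuron, read 11.80, 11.96 and 12.74 on the wildtype arrays and 11.63, 11.64 and 12.08 on the null arrays. Gad2, whose product is concentrated at nerve terminals, read 11.20, 11.21 and 11.66 on the wildtype arrays and 11.23, 11.20 and 11.53 on the null arrays. For both enzymes the day 14 arrays lay above all day 1 and day 7 arrays, and days 1 and 7 were close to each other. Gad1 rose by 0.70 (SE 0.14, 1.62-fold, limma adjusted p = 0.0123), while Gad2 had a difference of 0.38 (SE 0.12, 1.30-fold, adjusted p = 0.0737). The call of Gad1 ended without the wildtype day 1 array (0.54) and without the wildtype day 14 array (0.49). It also ended without the 2 high-Xist arrays with age as a line (0.68, limma adjusted p = 0.0957) and with genotype left out (0.70, adjusted p = 0.0754). With Xist as a covariate it was kept (0.66, adjusted p = 0.0323). Gad2 passed under none of 16 alternatives.

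**Figure D1:**
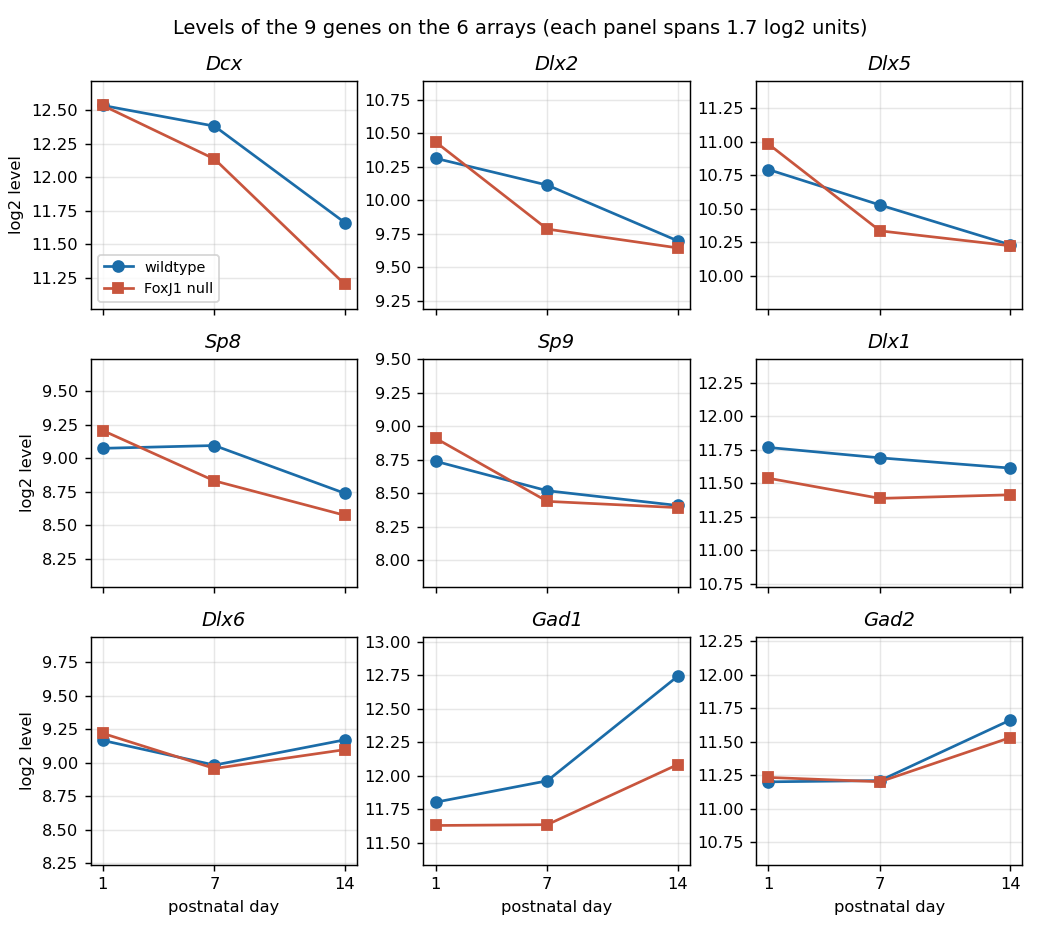
RMA log2 level (y axis) against postnatal day (x axis) for each of the 9 genes, with 1 point per array, circles for wildtype and squares for FoxJ1 null. Dcx drops from 12.54 on both day 1 arrays to 11.66 and 11.20 at day 14, while Gad1 climbs to 12.74 in the wildtype and 12.08 in the null.

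Of the 9 genes, 4 were called lower and 1 higher at day 14 than at day 1. Over all genes tested 6.29% were called lower and 7.5% higher, 13.8% in all. The median difference of the 9 genes was -0.42, against -0.01 over all genes. The day 14 pair lay below the day 1 pair for 5 of the 9 and above it for 2, and over all genes for 29.4% and 25.5%, 54.9% in either direction. Without the 2 high-Xist arrays, with age as a linear covariate, 4 were called lower and none higher, Gad1 being the gene lost. All genes then gave 849 lower and 1014 higher. Without the null day 1 array 1 member was called lower and 1 higher, beside 698 and 1041 of all genes. Without the null day 14 array 2 were lower and 1 higher, beside 636 and 708 of all genes. Without the wildtype day 14 array 3 were lower and none higher, beside 733 and 1264 of all genes, and without the wildtype day 1 array 5 were lower and none higher, beside 1465 and 1523.

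**Figure D2:**
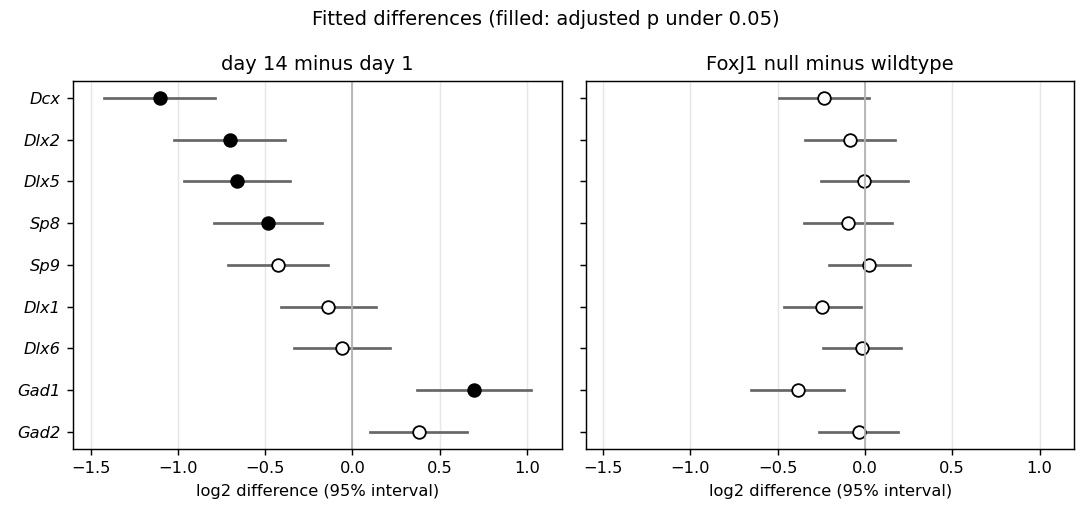
Fitted log2 differences (x axis) of the 9 genes with 95% intervals, between days 14 and 1 on the left and between FoxJ1 null and wildtype on the right, with filled points for an adjusted p under 0.05. On the left 4 genes lie below 0 with filled points and Gad1 above 0, and on the right all 9 points are open.

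Each step was also fitted on its own. From day 1 to day 7 no member was called by limma, and the fit called 0.0602% of all genes. An unadjusted p under 0.05 was found for 3 members and for 10.6% of all genes. Dlx5 (-0.46), Dlx2 (-0.43) and Sp9 (-0.35) had the most negative differences on this step, with adjusted p from 0.306 to 0.398, and Gad1 (0.08) and Gad2 (-0.01) were near 0. From day 7 to day 14 Dcx fell by 0.83 on the log2 scale (adjusted p = 0.0135) and Gad1 rose by 0.61 (adjusted p = 0.0471), against 1.87% of all genes called lower and 2.34% higher, 4.21% in all. For Dlx2 and Dlx5 this later step read -0.28 and -0.20 and did not pass. The later step was the greater one for Dcx, Gad1 and Gad2 in both genotypes, and the earlier one for Sp9. For Dlx2 the order depended on the genotype, with -0.20 and then -0.42 in the wildtype and -0.65 and then -0.14 in the null. Dlx5 read -0.27 and then -0.30 in the wildtype and -0.65 and then -0.11 in the null. Without the null day 7 array, which had high Xist, the later step was the greater one for Dlx2 (-0.24 and then -0.46) and Dlx5 (-0.31 and then -0.35). Whether the steps differ was not tested. Both later calls rested on few arrays. Dcx was not called without the wildtype day 7 (-0.82, adjusted p = 0.0529), null day 7 (-0.84, adjusted p = 0.0709) or null day 14 array (-0.66, adjusted p = 0.103). Gad1 was not called without the wildtype day 7 (0.57, adjusted p = 0.169), wildtype day 14 (0.41, adjusted p = 0.417) or null day 7 array (0.66, adjusted p = 0.145).

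The members' courses were set against each other after centring each gene on its own mean over the 6 arrays. The closest pair was Dlx2 and Dlx5, with a root-mean-square difference of 0.055 log2 units, followed by Dlx5 and Sp9 (0.102) and Dlx2 and Sp8 (0.117). Dlx1 and Dlx6 differed by 0.143. The farthest pair was Dcx and Gad1, at 0.783. Among all genes, Nrep, a gene of growing neurons, came nearest to Dcx (0.067), Traf4 to Dlx2 (0.033), Trim28 to Dlx5 (0.046), Lss, an enzyme of sterol synthesis, to Sp8 (0.020), Tigd3 to Sp9 (0.028), and Ckb, the brain creatine kinase, to Gad1 (0.090). Tex13a came nearest to Dlx1 (0.037), Gata5os to Dlx6 (0.015) and Pagr1a to Gad2 (0.031). The 8 genes nearest to the mean course of the members were Mtmr4 (0.022), Ncam1 (0.024), Nup85 (0.024), Gm9875 (0.027), Unc119b (0.027), Pck1 (0.033), 3110070M22Rik (0.033) and Rnase9 (0.035). Ncam1 encodes the adhesion molecule that carries polysialic acid on migrating neuroblasts. These matches were picked from 19938 genes over 6 arrays and are a description.

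FoxJ1 null and wildtype arrays were compared across the 3 ages for the same genes. No member was called in either direction, 2 had an unadjusted p under 0.05 against 5.92% of all genes, and the fit called 0.667% of all genes lower and 0.00502% higher, 0.672% in all. A lack of a call does not show equal levels in both genotypes, and equality was not tested. The median difference, null minus wildtype, was -0.09 for the 9 genes and -0.01 for all genes. For the 9 genes it was -0.05 without the 2 high-Xist arrays, -0.19 without either day 1 array and -0.02 without either day 7 array, with no member called in any of these.

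Gad1 had the greatest value. Its null arrays were lower by 0.17, 0.33 and 0.66 on the log2 scale at days 1, 7 and 14, a mean difference of -0.39 ± 0.25 (SD, n = 3 ages; 95% interval -0.65 to -0.12; limma adjusted p = 0.441). Without either day 14 array the value was -0.25. The null day 14 array nonetheless lay above the wildtype day 1 and day 7 arrays. Dlx1 was the single member whose 3 null arrays lay below all 3 wildtype arrays. Its differences were -0.23, -0.30 and -0.20 (mean -0.24 ± 0.05 (SD, n = 3 ages), limma adjusted p = 0.786). Over all genes 4.39% had null arrays below the wildtype arrays in this way and 1.76% above. Dcx read -0.0003 at day 1, -0.25 at day 7 and -0.46 at day 14 (mean -0.24 ± 0.23 (SD, n = 3 ages), limma adjusted p = 0.917). The fitted value was -0.46 without the 2 high-Xist arrays and -0.12 without either day 14 array.

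The other 6 members had mean differences from -0.10 to 0.03. Dlx2 (-0.09 ± 0.23), Dlx5 (-0.00 ± 0.19), Sp8 (-0.10 ± 0.21) and Sp9 (0.03 ± 0.13) were higher in the null at day 1, by 0.12, 0.19, 0.13 and 0.17, and lower in the null at days 7 and 14. Dlx6 (-0.02 ± 0.06) and Gad2 (-0.04 ± 0.09) had the same order of signs. The 95% intervals of these 6 genes reached from -0.35 to 0.26. The day 1 wildtype and day 7 null arrays, which enter the first and second of these differences, are the pair with high Xist. Without this pair, with age as a line, the fitted values were -0.05 for Dlx2, 0.06 for Dlx5 and 0.08 for Dlx6. Those of Sp8, Sp9 and Gad2 were -0.17, 0.08 and 0.04.

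**Figure D3:**
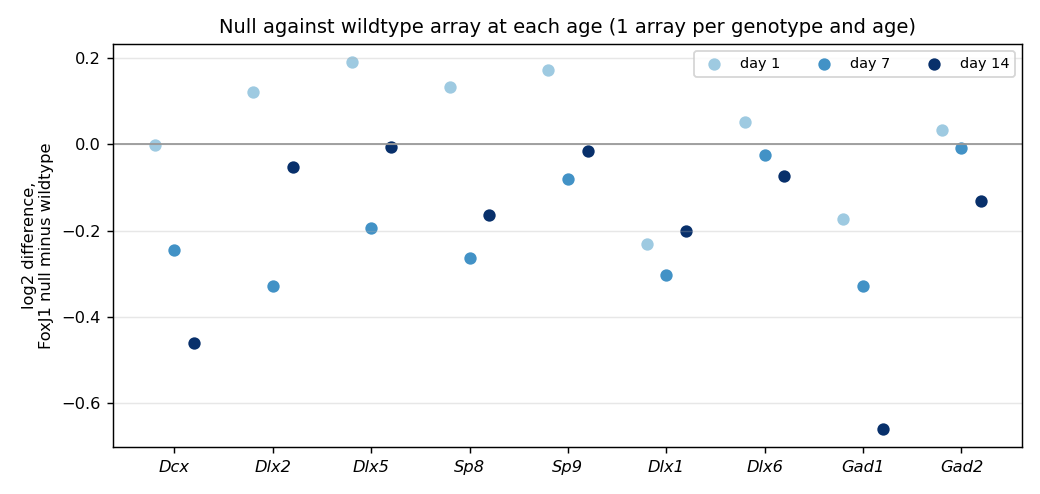
Log2 difference between the FoxJ1 null and the wildtype array (y axis) for each of the 9 genes (x axis), with 1 point per age and darker points for later ages. Dcx goes from -0.0003 at day 1 to -0.46 at day 14 and Gad1 from -0.17 to -0.66, while the 3 points of Dlx1 lie between -0.30 and -0.20.

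Whether the change with age differed between the genotypes was tested as the product of genotype and postnatal day. No member was called by limma, none had an unadjusted p under 0.05, and 0% of all genes were called, 2.99% having an unadjusted p under 0.05. Over the 13 days the slope differences (null minus wildtype) were -0.46 for Dcx (95% interval -1.17 to 0.25) and -0.49 for Gad1 (-1.21 to 0.23), each with an adjusted p of 1. Both intervals held 0 and also a 2-fold difference, and whether the slopes were equal was not tested. Both slope differences turned with 1 array left out. Dcx read 0.02 without the null day 14 array and Gad1 0.12 without the wildtype day 14 array. In the wildtype Dcx read 0.87 lower and in the null 1.34 lower at day 14 than at day 1, and Gad1 read 0.94 and 0.45 higher. The 7 others had slope differences from -0.28 to 0.03.

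Other genes of the lineage showed where the 9 stood. Transcription factors listed for the same lineage had lower levels at day 14 in part. Of 19 measured genes of this list 4 fell, none rose and 15 did not pass (median difference -0.23). Gsx2, which acts upstream of the Dlx genes, was low on the arrays, with a mean level of 6.69. The median of all probe sets was 7.72 to 7.81. Gsx2 fell by 0.75 on the log2 scale (1.68-fold, limma adjusted p = 0.00438). The others that fell were Nr2f2 (-0.68, adjusted p = 0.00712), Nr2f1 (-0.59, adjusted p = 0.0155) and Vax1 (-0.58, adjusted p = 0.0252). Without the wildtype day 14 array 2 were called. Between the genotypes none of the 19 was called with all arrays (median -0.03). This depended on the arrays used. A call higher in the null appeared without either day 7 array. Leaving out the wildtype or the null array of an age is the same fit here, since the array left adds nothing to the genotype difference. The list median was then 0.06. Rarb, a retinoic acid receptor, had the greatest value with all arrays (0.56, limma adjusted p = 0.22). Its differences, null minus wildtype, were 0.68, 0.14 and 0.86 at days 1, 7 and 14.

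Relatives of the members did not share 1 direction. Of 11 measured paralogs, Sp7 rose by 1.10 (2.15-fold, limma adjusted p = 0.000578), Sp1 fell by 0.51 on the log2 scale (adjusted p = 0.025) and Dclk2, a doublecortin-like kinase, fell by 0.44 (adjusted p = 0.0406), and 8 did not pass. Sp7, also known as osterix, is best known as a factor of bone cells. Without the null day 1 or null day 14 array 1 was called higher and none lower.

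Genes of the GABA handling list, which also holds glutamine synthetase, rose in part, as Gad1 did. Of 7 measured genes 3 rose and none fell (median 0.42), namely glutamine synthetase Glul (0.83, adjusted p = 0.0122), the GABA transaminase Abat (0.72, adjusted p = 0.012) and the GABA transporter Slc6a11 (0.50, adjusted p = 0.0497) by limma. Glul and Slc6a11 are also genes of astrocytes, and of 9 astrocyte markers 7 rose and 1 fell. The vesicular GABA transporter Slc32a1, which is restricted to inhibitory neurons, read 0.42 (adjusted p = 0.0832). These 3 calls were lost without the wildtype day 1 array and without the 2 high-Xist arrays with age as a line. The list median was then 0.34 and 0.39. Calls in the list of 7 also changed without the null day 14 array. Slc6a13, another of the 7, read -0.84 in the wildtype and 0.72 in the null between days 14 and 1. Of 11 GABA receptor genes 6 rose and none fell (median 0.45), led by Gabra4 (1.06, adjusted p = 0.00103) and Gabrd (0.86, adjusted p = 0.00306). Only 2 of them were called without the wildtype day 14 or the null day 14 array, 3 without the null day 1 array and 3 without the 2 high-Xist arrays.

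Genes of the immature neuron fell, as Dcx did, and genes of migration in part. In the migration list 10 of 25 fell and none rose (median -0.31). St8sia2, the polysialyltransferase that modifies Ncam1, fell 3.41-fold (-1.77, limma adjusted p = 0.000198), Cd24a, a surface protein of neuroblasts and ependymal cells, 2.74-fold (-1.46, adjusted p = 0.000233), the Slit receptor Robo1 2.11-fold (-1.08, adjusted p = 0.000752) and the semaphorin co-receptor Nrp1 1.94-fold (-0.95, adjusted p = 0.00957). Without the wildtype day 14 or null day 14 array 5 were called, and without the null day 1 array 6. In the immature neuron list all 16 measured genes fell (median -1.28), with Sox11 (-1.89), the collapsin response gene Dpysl3 (-1.81), the tubulin gene Tubb2b (3.03-fold) and Sox4 (-1.57) in front. At least 13 of the 16 were called without any single array.

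Products of mature olfactory bulb interneurons moved opposite to Dcx. Of 10 genes 9 rose and Npy did not pass (median 1.00). Th, tyrosine hydroxylase of dopaminergic periglomerular cells, read 9.26, 10.25 and 11.15 on the wildtype arrays and 8.97, 8.82 and 10.77 on the null arrays, and rose 3.60-fold (limma adjusted p = 0.00129). Trh (1.21, adjusted p = 0.00429), the synaptic vesicle gene Synpr (2.29-fold, adjusted p = 0.000577) and Pvalb (1.14, adjusted p = 0.00514) came next. Pvalb was low, with a mean level of 6.54, below the median of all probe sets on each array. Ddc, Crh and Vip, which also rose, had mean levels of 7.18, 6.76 and 6.37, likewise below that median (7.72 to 7.81). When the high-Xist pair was left out, with age as a line, 6 of the 10 were called, and without the null day 1 array also 6. Between the genotypes none was called with all 6 arrays, Synpr (-0.53, adjusted p = 0.0879) and Th (-0.70, adjusted p = 0.327) having the lowest values. This depended on the arrays used, since a gene of the list was called lower in the null without either day 1 or either day 14 array. The list median was then -0.25 and -0.23.

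**Figure D4:**
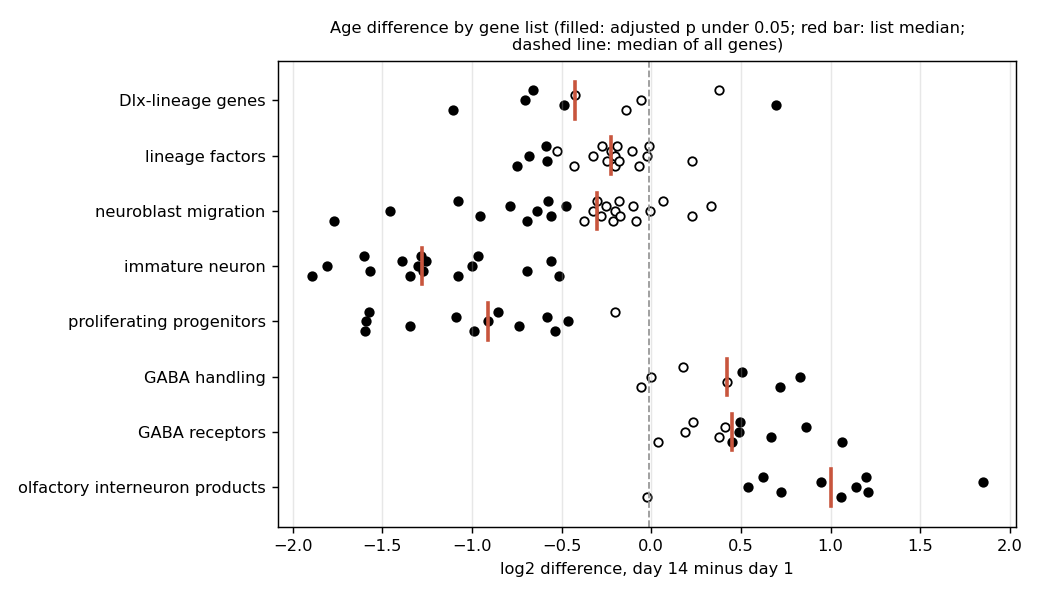
Log2 difference between days 14 and 1 (x axis) for every measured gene of 8 lists (y axis), with filled points for an adjusted p under 0.05, a bar at each list's median and a dashed line at the median of all genes. All 16 immature neuron genes lie below 0 and 9 of 10 olfactory interneuron products above 0, and the 9 Dlx-lineage genes span both sides.

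Markers of other cells in the capture moved with age in the same fit. Of 13 proliferation genes 12 fell (median -0.91). Of 9 glutamatergic neuron genes 5 fell and 1 rose, and of 12 genes of striatal projection neurons, which also use Gad1 and Gad2, 6 rose and 4 fell. In the list of interneurons from the medial ganglionic eminence, which share several members, 1 of 6 fell, Lhx6 (-0.76, limma adjusted p = 0.00368), and none was called without the 2 high-Xist arrays. The mean level of the striatal list was 9.27 to 9.53 on the wildtype arrays and 9.38 to 10.08 on the null arrays, and that of the medial eminence list 8.52 to 8.81 and 8.73 to 9.02. Oligodendrocyte genes (5 of 9) and microglia genes (6 of 8) rose and none fell, with 3 microglia genes called without the null day 1 and 2 without the null day 14 array. Of 8 choroid plexus genes none was called between the ages, but 3 were higher at day 14 without the 2 high-Xist arrays or without the wildtype day 1 array. Between the genotypes 3 were lower in the null, 4 without the high-Xist pair, 6 without either day 7 array and 5 without either day 14 array. The part of these cells in the members' levels was not tested.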

How the data were processed

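RNA of laser-captured FoxJ1-EGFP tissue was hybridised to 6 Affymetrix whole-transcript arrays, from 2 genotypes at 3 ages. The log2 levels of 35557 probe sets were deposited by the authors, with RMA named in the submitters' processing notes, and per the labels amplified cRNA was turned into biotin-labelled cDNA. The authors also deposited linear intensity values of 52 listed probe sets, which equalled the antilog of the log2 levels within 3.4e-06 and held no member. RMA fixes each array to a common distribution, so a shift shared by all genes could not be seen. Depth of signal over background was not given in the files used.

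Symbols came from the platform table (21789 probe sets with 1 symbol, 1621 with several, 12147 with none), and the probe set with the highest mean was kept for each of 19938 genes. Fits used limma 3.58.1 in R 4.3.3 on genotype plus age taken as 3 levels (2 residual and 7.51 prior degrees of freedom), or genotype, day and their product. Tables used Python 3.11.15, pandas 2.3.3, numpy 2.4.6 and matplotlib 3.10.9.

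The members, lists, tests and alternatives were chosen with earlier results of these data known. By the naming rule, all members are given, with up to 4 genes per other list by the greatest absolute difference, the nearest profile of each member and the 8 nearest to their mean. Listed genes without a probe set of 1 symbol were not used here. Alternatives were a second quantile normalization, median centring, a filter on the lowest tertile, other uses of probe sets, other variance priors, other covariates, each array left out, and the fit without the 2 high-Xist arrays. Counts for lists without arrays were added after the data were seen.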

Additional observations from a re-analysis of the deposited data

How the results depend on the processing

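Dcx passed between days 14 and 1 under all 16 alternatives, Dlx2 under 15, Dlx5 under 14, Sp8 and Gad1 under 12 each, and no member changed sign in this comparison. These alternatives overlap. Each member has 1 probe set, so the other uses of probe sets left its difference unchanged. The tertile filter, the variance priors and leaving genotype out did so too. In this comparison leaving out either day 7 array was the same fit. The count of members called there ran from 2 to 6 when single arrays were left out. Between days 14 and 7 the count ran from 0 to 2 without single arrays and was 1 with an intensity trend, with Xist as a covariate and with genotype left out, in each case because Gad1 was lost. No alternative called a member between the genotypes, between days 7 and 1 or in slope. Over all genes the genotype comparison called 134 genes, 66 without the 2 high-Xist arrays, 61 without the lowest tertile, 45 with age left out and 242 with every probe set tested on its own. Day 7 minus day 1 called 12, from 0 to 456 under the alternatives, and day 14 minus day 7 called 840, from 291 to 1587. Day 14 minus day 1 called 2751, 1863 without the 2 high-Xist arrays, 1739 without the null day 1 and 1344 without the null day 14 array.

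Differences that changed sign were as follows, all slopes among them. Between the genotypes Dlx5, Dlx6 and Gad2 read 0.016, 0.0013 and 0.0291 after a second quantile normalization and 0.0596, 0.0782 and 0.0431 without the 2 high-Xist arrays, Dlx5 and Dlx6 read 0.0287 and 0.0166 after median centring, and Dlx5 read 0.0002 with Xist as a covariate. Gad2 between days 7 and 1 read 0.0141 after quantile normalization, and the slope difference of Dlx1 was -0.0423 after median centring. Without single arrays the ranges were, between the genotypes, -0.1907 to 0.0348 for Dlx2, -0.1 to 0.0916 for Dlx5, -0.0494 to 0.0137 for Dlx6, -0.0476 to 0.0781 for Sp9 and -0.0698 to 0.0121 for Gad2; between days 7 and 1, -0.0767 to 0.2424 for Gad1 and -0.0627 to 0.04 for Gad2; between days 14 and 7, -0.0689 to 0.0191 for Dlx1 and -0.1572 to 0.0004 for Sp9; and in slope, -1.0117 to 0.0213 for Dcx, -0.1722 to 0.2033 for Dlx1, -0.7904 to 0.3598 for Dlx2, -0.8427 to 0.3553 for Dlx5, -0.5827 to 0.2874 for Dlx6, -0.6736 to 0.0342 for Sp8, -0.6948 to 0.2403 for Sp9, -0.9829 to 0.1193 for Gad1 and -0.5416 to 0.2859 for Gad2. With 1 array per genotype and age, leaving out an array leaves an age with 1 array. In the genotype comparison that age then adds nothing, so leaving out either of its arrays gave the same value. In the other fits the array left is assumed to vary like the others. The cause of these changes was not tested.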
